A study of Mus musculus with 24 samples.

Results

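Left ventricles of Per2 knockout (Per2-/-) and wildtype mice were compared after 30 minutes of ischemia with no reperfusion, a treatment called I30. The 3 arrays titled as knockout I30 hearts and the 3 titled as wildtype I30 hearts were taken, of 24 arrays in all, and each array carried RNA from the heart of 1 male mouse. The labels give the strain of every mouse as BL6C57, and the methods name the Jackson Laboratory as the source of the Per2-/- line and of the C57BL6 mice. They state neither the allele's deleted exons nor a cell type to which the loss of Per2 is limited. The other 18 arrays held both genotypes, 3 hearts each, in sham-operated hearts, in hearts preconditioned by 4 rounds of 5 minutes of ischemia, each followed by 5 minutes of flow (IP0), and in hearts reperfused for 60 minutes after an ischemic period of 30 minutes (I30R60). All hearts, sham hearts included, came from anesthetized, catheterized animals and were flushed with cold saline before they were collected. The comparison covered 18820 genes, each measured by the probe set with the highest mean over the 24 arrays. Values are log2 intensities, so that a difference of 1 is a doubling, and levels are not set against each other between genes because probe sets differ in brightness.

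PER2 is a repressor of the circadian clock. The transcription factors CLOCK and BMAL1 (gene Arntl) bind E-box sequences and drive the Per and Cry genes, whose proteins return to the nucleus and inhibit CLOCK and BMAL1. In heart muscle the clock is known for daily rhythms in the use of fatty acids, glucose and glycogen, and in the expression of ion channels. Ischemia stops the supply of oxygen and nutrients, and cells under such stress switch on immediate early genes, transcription factors and secreted proteins whose mRNA can rise within minutes without new protein synthesis. The comparison asks which transcripts differed between the genotypes at the end of the ischemic period.

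The heart muscle transcript Tnni3 lay between 13.07 and 13.21 in the 6 I30 arrays and Ttn between 11.80 and 11.88. The atrial light chain Myl7 lay between 2.85 and 3.64 in these arrays. It was higher in 4 arrays of other treatments: the Per2-/- sham array of replicate 3 had 11.21 and its IP0 counterpart 9.12, while wildtype sham arrays 1 and 2 had 8.24 and 5.22. Results that rest on sham or IP0 hearts are given without them where they moved (fits without the 4 leave 1 wildtype sham array, which is assumed to vary like the other groups). Arrays of the same group correlated by 0.983 to 0.986 among Per2-/- I30 hearts and by 0.981 to 0.986 among wildtype I30 hearts. The interquartile range of an array was 3.98, 3.89 and 3.85 in Per2-/- I30 replicates 1, 2 and 3, against 3.80, 3.87 and 3.76 in wildtype I30 replicates 1, 2 and 3, so the distributions were wider in the Per2-/- arrays on average. Scaling the arrays to a common range is given beside the counts it moved. The median standard deviation of a gene was 0.135 among Per2-/- I30 hearts and 0.146 among wildtype I30 hearts, and the median standard error of the difference was 0.137. The methods state that adult males of a narrow age range were used, that they were kept on a light-dark cycle beforehand, and that experiments took place at 1 time of day, the onset of light. The sources do not say which mice were handled together, and the p values measure the spread between these hearts. In ventricular tissue, fewer cells of a type and less RNA per cell cannot be told apart.

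After I30, 125 of 18820 genes differed between Per2-/- and wildtype hearts at an adjusted p under 0.05 in a limma model of all 24 arrays, which is 0.664% of the genes tested. Of these, 92 were higher (0.489%) and 33 were lower (0.175%) in Per2-/- hearts. The genes with the largest increase included Thbs1, Edn3, Prnd, Rab4a, Bdh1, Egr3, Egr2 and Scn4b, and those with the largest decrease included Rcan2, Lgr6, Sftpc, Slc38a1, Kcne1 and Icam1. The difference was at least 2-fold for 31 genes and at least 1.5-fold for 78, and the median absolute log2 difference among the 125 was 0.67. All 125 had no overlap between the 3 Per2-/- and the 3 wildtype hearts, a pattern that 16.3% of all genes showed, 8.21% with all Per2-/- hearts above and 8.09% with all below. At an unadjusted p under 0.05 there were 2310 genes (12.3%). Higher genes made up 73.6% of the calls, but 40.9% of 159 calls (65 higher and 94 lower) when each array was centred on its median and scaled to a common interquartile range. Of the 125 genes, 94 were called under that scaling too, and all 125 had the same sign. The model called 30 of the 125 genes, 22 higher and 8 lower, whichever of the 6 arrays was left out. Without wildtype I30 replicate 1 the count was 43, and without wildtype I30 replicate 3 it was 160, with 84 higher and 76 lower.

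**Figure D1:**
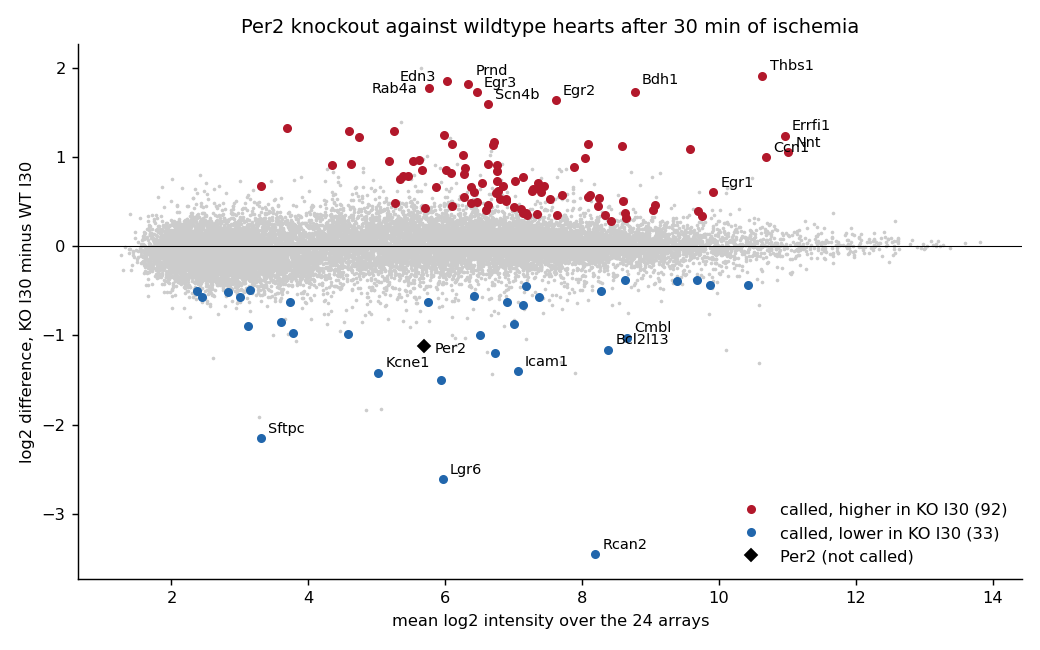
Log2 difference between Per2-/- and wildtype hearts after I30 (vertical axis) against the mean log2 intensity over the 24 arrays (horizontal axis), 1 point a gene for 18820 genes. Red points are the 92 genes called higher and blue points the 33 called lower in Per2-/- hearts, grey points were not called, and the black diamond is Per2 at -1.12; Rcan2 lies lowest at -3.46.

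The Per2 probe set had log2 values of 5.30, 4.94 and 5.04 in Per2-/- I30 hearts, against 6.44, 6.31 and 5.89 in wildtype I30 hearts. Every Per2-/- heart lay below every wildtype heart, with a difference of -1.12 (95% interval -1.68 to -0.56), and the test across all genes was missed (limma adjusted p = 0.0643). In sham hearts the values overlapped, with 5.69, 5.65 and 5.63 in Per2-/- hearts and 5.33, 5.94 and 6.10 in wildtype hearts. After IP0 the difference had the other sign without a call (0.37, adjusted p = 0.948), with 5.19, 5.65 and 5.60 in Per2-/- hearts and 4.66, 5.36 and 5.32 in wildtype hearts. After I30R60 it was -0.31 (adjusted p = 0.813), with 5.58, 5.99 and 6.25 in Per2-/- hearts and 5.51, 6.54 and 6.71 in wildtype hearts, so the groups overlapped in all treatments but I30. The place of the probe set relative to the deleted part of Per2 is not given in the sources used here, so its level does not check the labels. Under the common interquartile range Per2 was called (adjusted p = 0.0332), the 1 clock gene for which the scaling changed the call. Of the 15 core clock genes measured, limma called none in either direction on the deposited scale, where 1 was higher and 1 lower at an unadjusted p under 0.05, and their median difference was 0.02, against -0.01 over all genes. Npas2, which encodes a partner of BMAL1 that can stand in for CLOCK, had values of 5.72, 5.83 and 5.77 in Per2-/- hearts and 5.62, 6.86 and 7.21 in wildtype hearts, and the groups overlapped through wildtype replicate 1. Its mean was lower in Per2-/- hearts in the other treatments too. It was 5.66 against 6.58 in sham hearts, 5.41 against 7.23 after IP0 and 5.19 against 6.37 after I30R60. Ciart, a clock-driven repressor, differed by -0.59 (adjusted p = 0.519), while Arntl, Clock, Per1, Per3, Cry1 and Cry2 had differences between -0.10 and 0.16. Of the 11 clock output genes, which include the D-box factors Tef and Hlf, none was called (0 higher and 1 lower at an unadjusted p under 0.05), and the median was -0.20. Klf15, a clock-driven regulator of nutrient use in heart muscle, had 7.75, 7.33 and 7.94 in Per2-/- hearts and 8.04, 8.34 and 8.0 in wildtype hearts, a difference of -0.45 (adjusted p = 0.291).

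Immediate early genes of the EGR family and the matricellular gene Ccn1 were higher in Per2-/- hearts. Of 28 immediate early genes measured, 4 were called higher and none lower, and 24 were not called. The list's median difference was 0.22 after I30 and 0.50 in sham hearts, against -0.01 and 0.01 over all genes. Egr3, a zinc finger transcription factor, had 6.84, 6.79 and 7.12 in Per2-/- I30 hearts and 5.11, 5.07 and 5.40 in wildtype I30 hearts. That is a 3.30-fold difference (log2 1.72, standard error 0.24, limma adjusted p = 0.000849). Egr2, a factor of the same family known for its part in myelination, had 8.06, 7.78 and 7.95 in Per2-/- hearts and 6.14, 5.91 and 6.81 in wildtype hearts (log2 1.64, standard error 0.24, adjusted p = 0.00138). Egr1, the most widely studied member, had 9.89, 9.84 and 9.75 in Per2-/- hearts, against 9.19, 9.15 and 9.31 in wildtype hearts (log2 0.61, adjusted p = 0.0151). Ccn1, which encodes a secreted integrin ligand, had 10.93, 10.69 and 10.68 in Per2-/- hearts and 9.88, 9.35 and 10.07 in wildtype hearts (log2 1.00, adjusted p = 0.00225). In each of these genes the lowest Per2-/- heart lay above the highest wildtype heart. Nab2, a corepressor that binds EGR proteins and is itself an EGR target, was higher as well, with 7.28, 7.71 and 7.38 in Per2-/- hearts and 6.73, 6.81 and 6.69 in wildtype hearts (log2 0.71, adjusted p = 0.0295). The orphan nuclear receptors Nr4a1, Nr4a2 and Nr4a3 had differences of 0.65, 1.03 and 0.86 that missed the test, with adjusted p values of 0.247, 0.0611 and 0.229. Of the 28 differences, 19 were positive and 9 negative. At an unadjusted p under 0.05, 9 of the 28 were higher and 3 lower, against 1135 and 1175 of all 18820 genes. Among the members that did not share the direction of the EGR genes, Fos had a difference of 0.00, Jun of -0.14, Atf3 of -0.20 and Ier5 of -0.48, none of them called. The call of Egr1 ended without Per2-/- I30 replicate 1 or wildtype I30 replicate 1 or 2 (adjusted p up to 0.0781), and that of Nab2 without any of the 6 arrays (up to 0.156), while Egr2, Egr3 and Ccn1 were called in all 6 fits. Under the common interquartile range Egr1 was not called (adjusted p = 0.0828), and 3 members of the list remained called.

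In sham hearts the genotypes were closer in the EGR genes. Egr2 averaged 7.97 ± 0.53 in Per2-/- sham hearts and 7.46 ± 0.08 in wildtype sham hearts, against 7.93 ± 0.14 in Per2-/- I30 hearts and 6.29 ± 0.47 in wildtype I30 hearts (SD, n = 3 each). Egr3 averaged 6.97 ± 0.50 in Per2-/- sham hearts and 6.18 ± 0.56 in wildtype sham hearts, and 6.92 ± 0.18 in Per2-/- I30 hearts and 5.19 ± 0.18 in wildtype I30 hearts. So both genes stood at a like mean in the 2 groups of Per2-/- hearts, and the 3 wildtype I30 hearts held the lowest values of these 4 groups. The change of the genotype difference between sham and I30 was 1.13 for Egr2 and 0.93 for Egr3, and neither passed the test of the interaction (adjusted p = 0.461 and 0.561). Without Per2-/- sham replicate 3 the sham difference of Egr2 was 0.81. After IP0 the genotype difference was 0.00 for Egr2 and 0.19 for Egr3, and after I30R60 it was 0.18 and 0.31, with no call in either treatment.

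**Figure D2:**
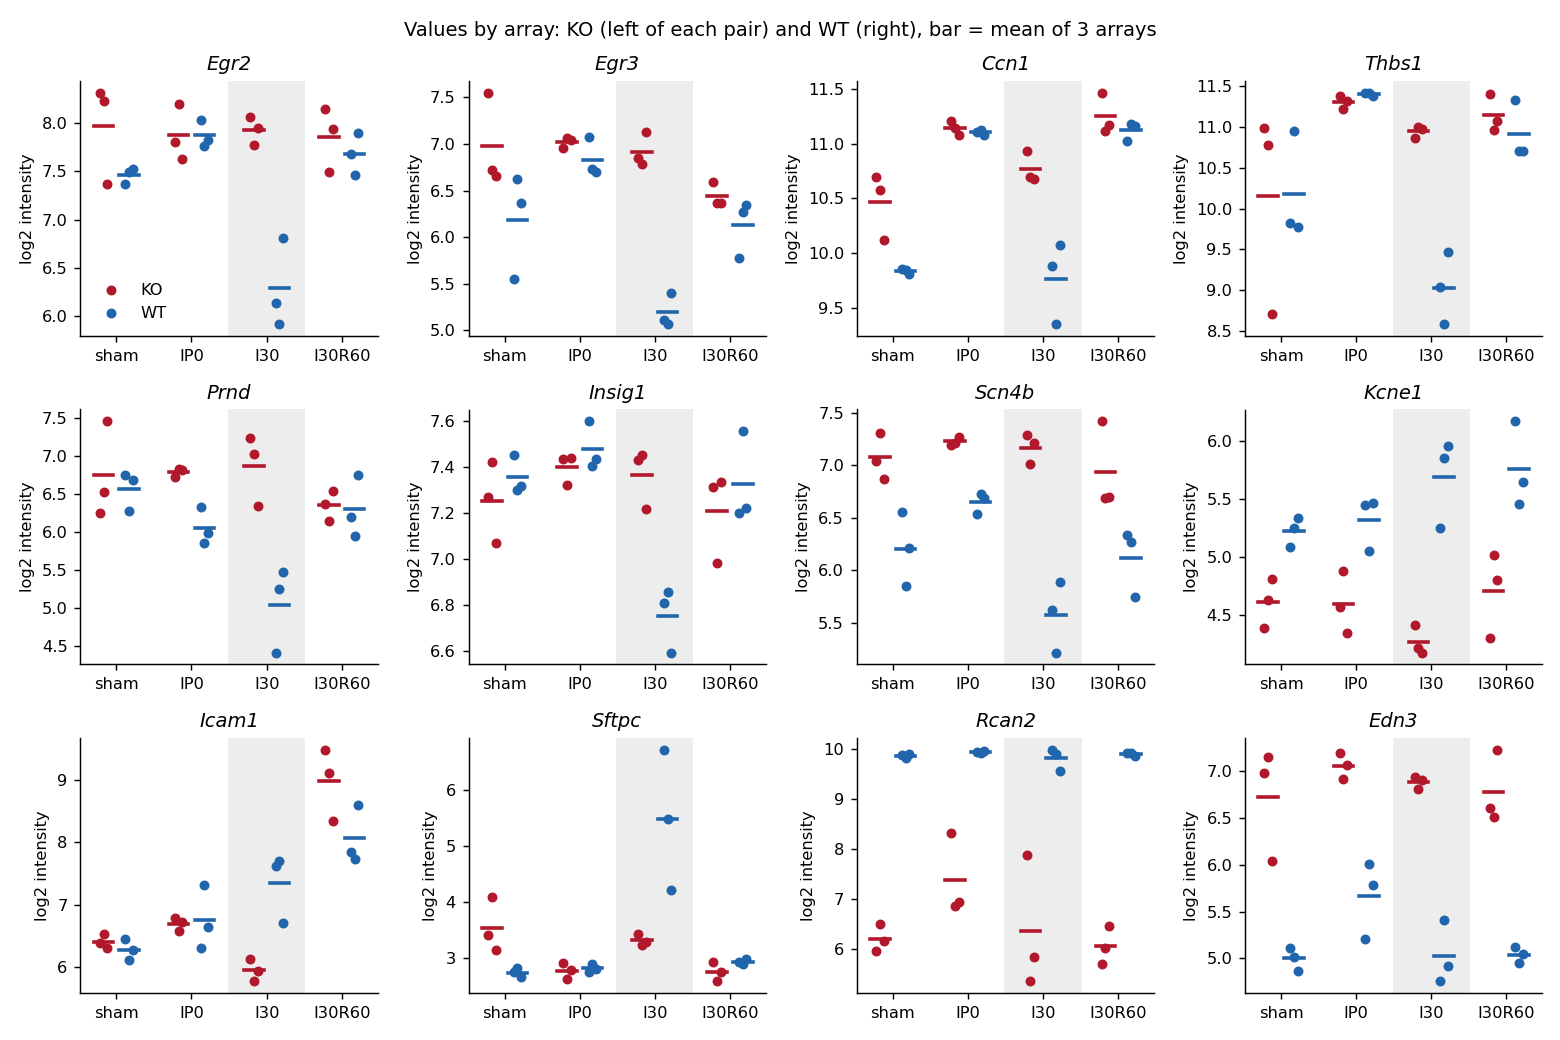
Log2 intensity of 12 genes (1 panel each) by treatment, with Per2-/- hearts in red at the left of each pair and wildtype hearts in blue at the right; points are arrays, bars are means of 3, and grey bands mark I30. In Egr2, Egr3, Prnd and Insig1 the 3 wildtype I30 points lie at the bottom of their panels, in Sftpc the 3 wildtype I30 points lie at the top, and in Rcan2 and Edn3 the genotypes are apart in all 4 treatments.

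Promoter sequence is shown for genes that were higher in Per2-/- I30 hearts and that hold a motif tied to stress or clock control in the bases just before the start. RefSeq promoters (GRCm38.p6) were matched for 65 of the 92 higher genes and 26 of the 33 lower genes, and the 250 bases before each start were searched on both strands. The motifs were the CArG box (CC, 6 of A or T, then GG), which serum response factor binds, the E-box CACGTG of the clock, the cyclic AMP response element TGACGTCA, and the EGR site GCGTGGGCG. The CArG box was in 2 of the 65 genes and in 1.47% of 14749 genes with a promoter, the E-box in 7 of 65 (10.8%) and in 8.19% of all, and the cyclic AMP response element in 1 of 65 and in 2.39% of all. In the lower genes the CArG box was in 2 of 26 and the E-box in 2 of 26 (7.69%). The EGR site was in none of either set and in 0.929% of all 14749 genes. At so low a share its absence from sets of this size tells nothing about them. Each line below gives positions -200 to -1 from the start, 5′ to 3′ on the gene's strand, with the motif in capitals. The first pair shows a CArG box (Egr2 at chr10:67537669-67537868 on the plus strand, Lima1 at chr15:99820150-99820349 on the minus strand), the next pair an E-box (Prnd at chr2:131950661-131950860 and Insig1 at chr5:28071212-28071411, both plus), and the last a cyclic AMP response element (Errfi1 at chr4:150854870-150855069, plus).
Egr2: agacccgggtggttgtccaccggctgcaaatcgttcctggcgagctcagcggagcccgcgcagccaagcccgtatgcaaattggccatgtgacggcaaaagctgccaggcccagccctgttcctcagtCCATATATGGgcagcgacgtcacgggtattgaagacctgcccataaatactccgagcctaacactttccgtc
Lima1: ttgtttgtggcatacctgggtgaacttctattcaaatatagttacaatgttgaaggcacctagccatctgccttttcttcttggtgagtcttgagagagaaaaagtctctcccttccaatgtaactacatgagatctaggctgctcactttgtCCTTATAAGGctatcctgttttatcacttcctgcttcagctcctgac
Prnd: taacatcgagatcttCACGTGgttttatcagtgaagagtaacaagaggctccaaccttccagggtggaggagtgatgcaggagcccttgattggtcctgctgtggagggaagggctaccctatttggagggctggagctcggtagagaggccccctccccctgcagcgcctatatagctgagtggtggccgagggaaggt
Insig1: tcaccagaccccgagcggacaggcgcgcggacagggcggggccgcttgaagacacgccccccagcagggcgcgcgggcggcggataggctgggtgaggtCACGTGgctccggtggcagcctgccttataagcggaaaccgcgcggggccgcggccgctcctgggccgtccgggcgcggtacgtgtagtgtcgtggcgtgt
Errfi1: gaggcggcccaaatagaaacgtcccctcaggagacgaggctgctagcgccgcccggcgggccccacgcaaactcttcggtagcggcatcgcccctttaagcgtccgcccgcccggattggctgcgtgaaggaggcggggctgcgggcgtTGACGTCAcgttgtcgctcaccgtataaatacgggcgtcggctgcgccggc
These matches are descriptions of letters in a window and say nothing of binding in these hearts. The 2 higher genes with a CArG box differed in their sham values: Lima1, which encodes the actin-binding protein EPLIN, had 7.34, 7.47 and 7.44 in Per2-/- I30 hearts, against 6.89, 6.73 and 6.68 in wildtype I30 hearts (log2 0.65, adjusted p = 0.00138), and a sham difference of 0.08, while the sham difference of Egr2 was 0.51.

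Thbs1, Prnd, Errfi1 and Insig1 were higher as well. Thbs1, which encodes the matricellular protein thrombospondin 1, had 10.86, 10.99 and 10.98 in Per2-/- I30 hearts, against 9.04, 8.58 and 9.47 in wildtype I30 hearts. The difference was 3.77-fold (log2 1.91, standard error 0.41, adjusted p = 0.0272), and the 3 Per2-/- hearts lay close together above all wildtype hearts. In sham hearts Thbs1 spread widely in both genotypes, with 10.99, 10.78 and 8.71 in Per2-/- hearts and 9.83, 10.95 and 9.78 in wildtype hearts. The lowest value, 8.71, was that of Per2-/- sham replicate 3, the array with the highest Myl7 (11.21), and the sham difference of Thbs1 was -0.02 with that array and 0.70 without it, called in neither case. The part of atrial tissue in these sham values was not tested. Prnd, which encodes the prion-like protein doppel, had 7.23, 7.03 and 6.34 in Per2-/- I30 hearts and 4.41, 5.25 and 5.47 in wildtype I30 hearts (log2 1.82, standard error 0.30, adjusted p = 0.00376). Its sham difference was 0.18. Errfi1, a feedback inhibitor of EGF receptors, had 11.16, 11.12 and 11.33 in Per2-/- I30 hearts and 9.48, 9.73 and 10.67 in wildtype I30 hearts (log2 1.24, adjusted p = 0.0385), with a sham difference of -0.13. Insig1, which holds the sterol sensor SCAP in the endoplasmic reticulum, had 7.43, 7.46 and 7.22 in Per2-/- I30 hearts and 6.81, 6.86 and 6.59 in wildtype I30 hearts (log2 0.62, adjusted p = 0.0182), with a sham difference of -0.11. Prnd was called in all 6 fits with an array left out. The calls of Thbs1 and Errfi1 ended without any array except wildtype I30 replicate 3 (adjusted p up to 0.117 and 0.201), and that of Insig1 without Per2-/- I30 replicate 1 or 2 or wildtype I30 replicate 1 or 3 (up to 0.0882).

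Further called genes outside the lists were the following. Fgf2, fibroblast growth factor 2, had 7.96, 7.93 and 8.01 in Per2-/- I30 hearts and 7.55, 7.64 and 6.99 in wildtype I30 hearts (log2 0.57, adjusted p = 0.0473). Ccn3, a matricellular relative of Ccn1, differed by 0.96 (adjusted p = 0.0475), and Unc5b, a netrin receptor of endothelial cells, by 0.88 (adjusted p = 0.0334). Penk, the precursor of the enkephalin opioid peptides, differed by 0.67 (adjusted p = 0.0272). Grk5, a kinase that desensitizes beta-adrenergic receptors in heart muscle, had 8.10, 8.35 and 8.30 in Per2-/- I30 hearts and 7.64, 7.58 and 7.79 in wildtype I30 hearts (log2 0.58, adjusted p = 0.00394). Prkcq, protein kinase C theta, differed by 0.82 (adjusted p = 0.00282) and by a like 0.80 in sham hearts. Camk2b, a subunit of the calcium and calmodulin dependent kinase II, differed by 0.66 (adjusted p = 0.0421), and Ugdh, which makes the UDP-glucuronate used for matrix sugars, by 1.12 (adjusted p = 0.0491). Myot, a Z-disc protein of striated muscle, differed by 1.09 (adjusted p = 0.0354). In the other direction, Egfr, a receptor for epidermal growth factor, had 6.20, 6.16 and 6.14 in Per2-/- I30 hearts and 6.65, 6.76 and 6.79 in wildtype I30 hearts (log2 -0.56, adjusted p = 0.0245). Grk5 and Prkcq were called in all 6 fits. The calls of Ccn3, Myot, Ugdh and Egfr ended without any of the 6 arrays (adjusted p up to 0.219, 0.132, 0.178 and 0.092), those of Fgf2 and Penk without any but 1 (wildtype I30 replicate 2 for Fgf2, Per2-/- I30 replicate 2 for Penk, up to 0.14 and 0.143), that of Unc5b without Per2-/- I30 replicate 1 or 2 or wildtype I30 replicate 1 or 2 (up to 0.194), and that of Camk2b without Per2-/- I30 replicate 1 or 3 or wildtype I30 replicate 1 or 3 (up to 0.22).

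Genes of cardiac excitability differed in both directions. Of 27 ion channel and calcium handling genes, 2 were called higher and 1 lower, against 0.489% and 0.175% of all genes. Their median was 0.06, against -0.01 over all genes. The list was chosen with earlier results of these data known, so these counts are no result about channel genes as a class. Scn4b, an auxiliary subunit of voltage-gated sodium channels, had 7.29, 7.01 and 7.21 in Per2-/- I30 hearts, against 5.62, 5.21 and 5.89 in wildtype I30 hearts, a 3.02-fold difference (log2 1.59, standard error 0.21, adjusted p = 0.000483). Its values did not overlap, and its differences of 0.87 in sham, 0.58 after IP0 and 0.82 after I30R60 had the same sign without a call. Kcnk3, a background potassium channel, had 8.83, 8.76 and 8.78 in Per2-/- hearts and 8.47, 8.46 and 8.49 in wildtype hearts (log2 0.32, adjusted p = 0.026). Kcnj12, a subunit of the inward rectifier current, had 5.58, 5.43 and 5.30 in Per2-/- hearts and 6.19, 6.25 and 5.76 in wildtype hearts (log2 -0.63, adjusted p = 0.0157). Kcne1, the beta subunit of the slow delayed rectifier channel KCNQ1, stood outside that list and was lower, with 4.41, 4.21 and 4.17 in Per2-/- hearts and 5.25, 5.85 and 5.96 in wildtype hearts (log2 -1.42, standard error 0.21, adjusted p = 0.00182). Kcne1 was lower by a called difference after I30R60 too (-1.05, adjusted p = 0.0455), and Kcnq1 itself had a difference of -0.20 after I30 that was not called. Genes of calcium release and uptake were near 0, with Ryr2 at 0.01, Casq2 at 0.02, Pln at 0.06 and Atp2a2 at 0.06. The calls of Kcnk3 and Kcnj12 ended when single arrays were left out, for Kcnk3 any but wildtype I30 replicate 3 (adjusted p up to 0.123) and for Kcnj12 any but Per2-/- I30 replicate 1 or wildtype I30 replicate 3 (up to 0.0839), while Scn4b and Kcne1 were called in all 6 fits. Under the common interquartile range Kcnk3 was not called (adjusted p = 0.222).

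Metabolic lists held few calls. None was called among 22 genes of fatty acid beta-oxidation, 16 targets of the fatty acid receptor PPAR-alpha, 24 of glycolysis and lactate export, 22 of glycogen metabolism, 21 of branched-chain amino acid degradation, 28 of lipid droplets and triglycerides and 77 oxidative phosphorylation subunits. Their medians were 0.03, 0.07, 0.01, 0.03, 0.11, 0.02 and -0.03 in the same order. At an unadjusted p under 0.05 they held 2, 0, 1, 5, 5, 2 and 0 higher genes and 1, 1, 2, 3, 0, 1 and 5 lower genes. Under the common interquartile range 3 oxidative phosphorylation subunits were called lower, Atp5e by -0.50, Cox6a1 by -0.46 and Uqcr11 by -0.42. A large difference among metabolic genes outside these lists was that of Bdh1, the mitochondrial enzyme that interconverts the ketone bodies acetoacetate and beta-hydroxybutyrate, with 9.50, 9.38 and 9.55 in Per2-/- I30 hearts, against 8.39, 7.60 and 7.24 in wildtype I30 hearts. That is a 3.33-fold difference (log2 1.73, standard error 0.27, adjusted p = 0.00282), called in all 6 fits with an array left out. Bdh1 differed by 1.05 in sham hearts, 1.1 after IP0 and 1.09 after I30R60 without a call. In sham hearts Per2-/- replicate 3 was again apart, with 9.62, 9.54 and 8.39 in Per2-/- hearts and 8.45, 7.72 and 8.24 in wildtype hearts. Without it the sham difference of Bdh1 was 1.44 and was called (limma adjusted p = 0.00692). Without the 4 arrays with high Myl7, which leaves 1 wildtype sham array, the sham difference was 1.34 and was not called. Of 25 antioxidant and NADPH genes, Nnt and Nqo1 were called higher and none lower. Nqo1, a quinone reductase, had 8.43, 8.04 and 8.36 in Per2-/- hearts and 7.61, 7.74 and 7.80 in wildtype hearts (log2 0.56, adjusted p = 0.0222), a call that ended without Per2-/- I30 replicate 1 or 3 or wildtype I30 replicate 1 or 2 (adjusted p up to 0.125) and under the common interquartile range (0.0647). In all, 15 of the 125 called genes belonged to 9 of 24 pathway lists, and 15 lists held no call. The 24 lists held 455 genes, and over all 18820 genes 0.664% were called. The lists were chosen with earlier results of these data known, so the count of 15 is no result about pathways.

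In the PPAR-alpha targets the list median was 0.07 after I30 and -0.32 in sham hearts, and 7 of 16 members were lower on average in Per2-/- sham hearts and higher in Per2-/- I30 hearts. Of all 18820 genes, 3689 had that pattern. So did 12 of 28 lipid droplet and triglyceride genes, 9 of 25 antioxidant and NADPH genes, and 2 of 24 genes of glycolysis and lactate export. Ehhadh, the peroxisomal bifunctional enzyme of fatty acid oxidation, had 6.08, 6.53 and 6.08 in Per2-/- I30 hearts and 5.96, 6.13 and 5.86 in wildtype I30 hearts (0.25, adjusted p = 0.669), against 6.51, 6.65 and 6.29 in Per2-/- sham hearts and 7.45, 7.81 and 7.33 in wildtype sham hearts (-1.05, adjusted p = 0.0221). Ucp3, a mitochondrial carrier induced by fatty acids, had a mean of 7.77 ± 0.61 in Per2-/- I30 hearts and 7.26 ± 0.43 in wildtype I30 hearts, against 7.83 ± 0.40 in Per2-/- sham hearts and 8.91 ± 0.18 in wildtype sham hearts. Ppp1r3c, a subunit that directs protein phosphatase to glycogen, ran the other way. It had 9.13, 8.86 and 9.01 in Per2-/- I30 hearts and 9.47, 9.40 and 9.57 in wildtype I30 hearts (-0.48, adjusted p = 0.238), against 9.23, 9.44 and 8.69 in Per2-/- sham hearts and 8.40, 8.16 and 8.13 in wildtype sham hearts (0.89, adjusted p = 0.0243). The interaction of genotype and I30 was 1.29 for Ehhadh, 1.60 for Ucp3 and -1.37 for Ppp1r3c, with adjusted p values of 0.371, 0.466 and 0.11. Without Per2-/- sham replicate 3 the interaction of Ppp1r3c was called (-1.59, limma adjusted p = 0.0168). The sham call of Ehhadh ended in that fit (adjusted p = 0.088). Without the 4 arrays with high Myl7, which leaves 1 wildtype sham array, the interaction of Ppp1r3c was -1.68 and was not called. Both sham calls ended there too, with differences of -0.75 for Ehhadh and 1.20 for Ppp1r3c. These 3 genes, Atf3 and Sftpc are 5 that the study itself names for this treatment, chosen on these same arrays. The study lists them as regulated by the treatment in wildtype but not in Per2-/- mice. That is another comparison than Per2-/- against wildtype hearts after I30, in which Sftpc was the only one of the 5 called.

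**Figure D3:**
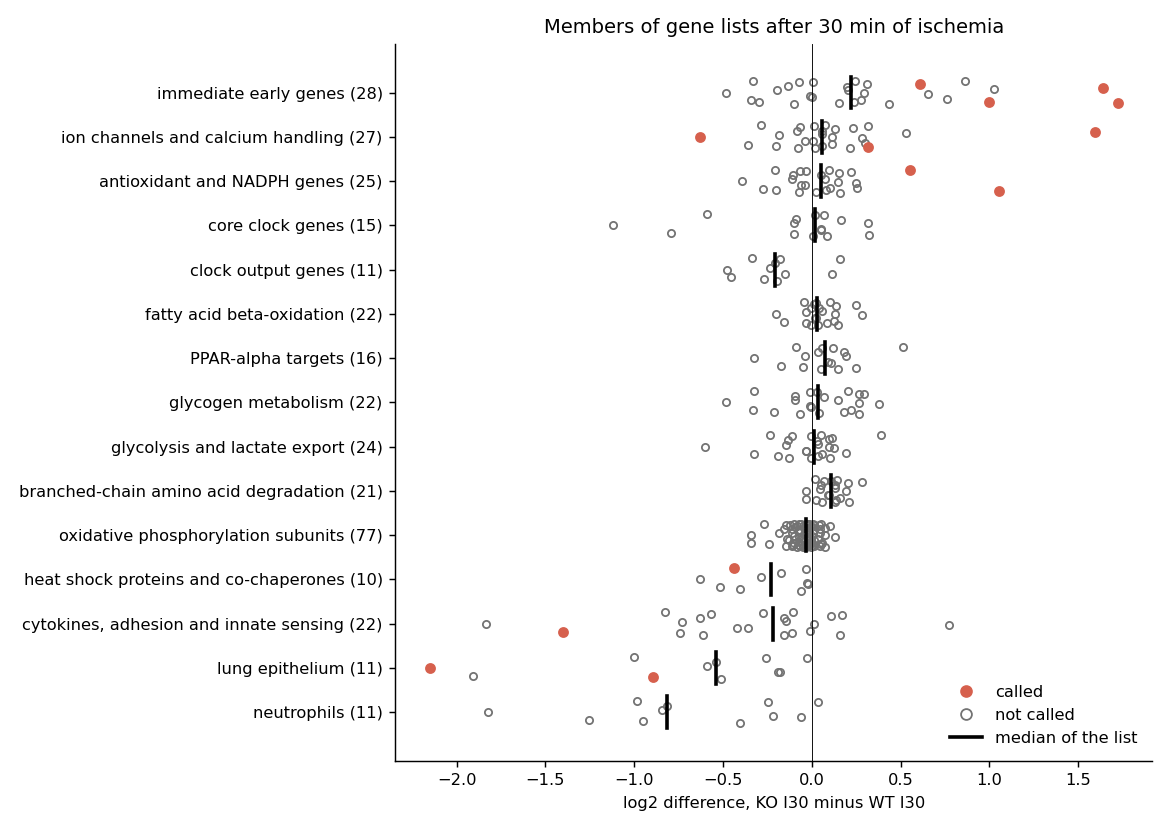
Log2 difference between Per2-/- and wildtype hearts after I30 (horizontal axis) for the members of 15 gene lists (rows, number of genes in brackets); filled points were called, open points were not, and black bars are list medians. Calls lie at the right for immediate early genes (4 of 28) and at the left for lung epithelium (2 of 11), and no member was called in the lists of fatty acid oxidation, glycogen, glycolysis or oxidative phosphorylation.

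Lower genes in Per2-/- hearts included an adhesion molecule and markers of lung epithelium. Icam1, the endothelial ligand of leukocyte integrins, had 6.13, 5.76 and 5.93 in Per2-/- I30 hearts, against 7.62, 7.70 and 6.71 in wildtype I30 hearts (log2 -1.40, standard error 0.29, adjusted p = 0.0245), and a sham difference of 0.13. It was the 1 called gene among 22 of cytokines, adhesion and innate sensing, whose median was -0.22. Selp, which encodes P-selectin, had a difference of -1.83 (adjusted p = 0.0759), and Tlr2 one of -0.63 (adjusted p = 0.229). Ms4a6c, a membrane protein of myeloid cells, had 5.73, 5.96 and 6.42 in Per2-/- hearts and 7.59, 7.34 and 6.76 in wildtype hearts (log2 -1.19, adjusted p = 0.0245). Hspe1, the mitochondrial chaperonin of HSP60, had 9.61, 9.83 and 9.64 in Per2-/- hearts and 10.31, 10.04 and 10.04 in wildtype hearts (log2 -0.44, adjusted p = 0.0372), and was the 1 call among 10 heat shock genes. Foxq1, a forkhead transcription factor, had 2.90, 3.51 and 3.55 in Per2-/- hearts and 4.17, 4.01 and 4.32 in wildtype hearts (log2 -0.85, adjusted p = 0.0245). The calls ended for Icam1 without any array except wildtype I30 replicate 3 (adjusted p up to 0.122), for Ms4a6c without Per2-/- I30 replicate 1 or 2 or wildtype I30 replicate 1 or 2 (up to 0.141), for Hspe1 without Per2-/- I30 replicate 1 or 3 or wildtype I30 replicate 1 or 2 (up to 0.198) or with arrays centred on their medians (0.0645), and for Foxq1 without Per2-/- I30 replicate 1 or wildtype I30 replicate 1 or 3 (up to 0.149).

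Sftpc, the surfactant protein of alveolar type II cells, had 3.44, 3.24 and 3.30 in Per2-/- I30 hearts, against 6.72, 5.49 and 4.22 in wildtype I30 hearts, a 4.44-fold difference (log2 -2.15, standard error 0.36, adjusted p = 0.00513). Sftpb, another surfactant protein, had 2.84, 3.02 and 3.08 in Per2-/- hearts and 4.12, 4.14 and 3.36 in wildtype hearts (log2 -0.90, adjusted p = 0.0433), a call that ended without any array except wildtype I30 replicate 3 (adjusted p up to 0.2) and with arrays centred on their medians or quantile normalized (adjusted p = 0.0511 in both). Scgb1a1 and Cyp2f2, both of airway club cells, had differences of -1.91 and -1.0 that were not called (adjusted p = 0.0731 and 0.0614). Of 11 lung epithelium markers, 2 were called lower, against 0.175% of all genes, and none higher. All 11 differences were negative, against 53.5% over all genes, and the median was -0.54, against -0.01. The mean level of the 11 was 2.91 to 3.06 in Per2-/- I30 arrays, against 3.32 to 4.35 in wildtype I30 arrays, and 2.87 to 3.17 in Per2-/- sham arrays, against 2.73 to 2.85 in wildtype sham arrays. Of 11 neutrophil markers none was called, and their median was -0.81. At an unadjusted p under 0.05 in limma, 0 were higher and 6 lower, against 1135 and 1175 of all 18820 genes. Their mean level was 3.62 to 3.66 in Per2-/- I30 arrays, against 3.83 to 5.06 in wildtype I30 arrays. Retnlg, a granulocyte gene, had 4.54, 4.12 and 3.64 in Per2-/- I30 hearts and 7.22, 5.87 and 4.67 in wildtype I30 hearts (-1.82, adjusted p = 0.112). In both lists wildtype I30 replicate 1 was the highest of the 6 arrays and wildtype I30 replicate 3 the lowest of the wildtype arrays. The part of other tissue or blood cells in the lower genes, Icam1 and Ms4a6c included, was not tested. Markers of ventricular muscle (8 genes, median 0.02), fibroblasts (9, -0.19), endothelium (9, 0.07), smooth muscle and pericytes (8, 0.19), macrophages (9, -0.25) and lymphocytes (9, 0.10) held no call, and the mean of the endothelial markers was 9.07 to 9.13 in Per2-/- I30 arrays, against 8.87 to 8.94 in wildtype I30 arrays. Under the common interquartile range C1qb of the macrophage list and Acta2 of the smooth muscle list were called lower, by -0.45 and -0.85.

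**Figure D4:**
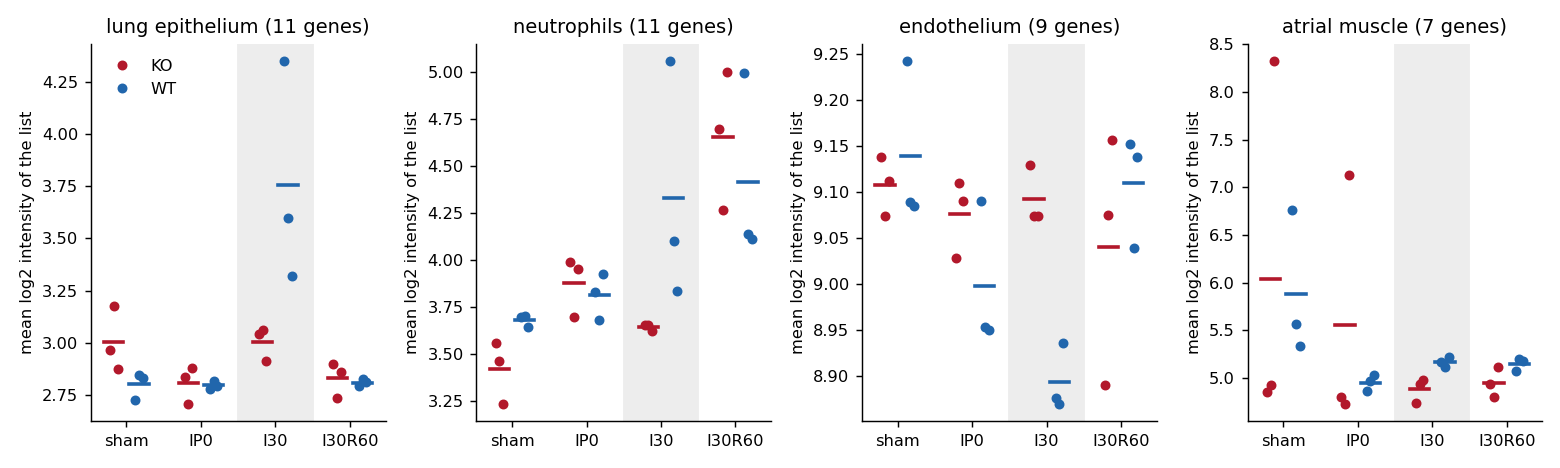
Mean log2 intensity of marker lists (vertical axes) in each array by treatment, Per2-/- hearts in red at the left of each pair and wildtype hearts in blue at the right, with bars at the mean of 3 arrays and grey bands at I30. Lung epithelium markers reach 3.32 to 4.35 in wildtype I30 hearts and stay at 2.91 to 3.06 in Per2-/- I30 hearts, and the high atrial values lie in sham and IP0 arrays.

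A group of genes differed between the genotypes in every treatment. The genotype comparisons in sham, IP0 and I30R60 hearts use other arrays than the I30 comparison, and of 18820 genes they called 50 (0.266%), 15 (0.0797%) and 33 (0.175%). Among the 125 genes called after I30, 107 had the same sign in sham, 109 after IP0 and 107 after I30R60, against 53.8%, 53.8% and 50.5% of all genes. They were called in the same direction in 24, 12 and 17 cases, and in none in the other direction. The median absolute difference of the 125 was 0.67 after I30, where they were chosen, and 0.36, 0.25 and 0.24 in sham, IP0 and I30R60 hearts. The 11 genes called in all 4 treatments were Bcl2l13, Cmbl, Cops8, Edn3, Lgr6, Nnt, Rcan2, Sdc2, Snrpe, Tmem37 and Wdfy1, and 97 of the 125 were called after I30 alone, a count that does not test whether the treatments differ. Without the 4 arrays with high Myl7 the sham, IP0 and I30R60 comparisons called 14, 5 and 28 genes, of which 10, 5 and 17 were among the 125 in the same direction, and 4 genes (Bcl2l13, Lgr6, Nnt and Snrpe) were called in all 4 treatments.

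Several genes of this shared set had large differences. Rcan2, a regulator of the phosphatase calcineurin, had 7.89, 5.35 and 5.84 in Per2-/- I30 hearts and 9.99, 9.90 and 9.57 in wildtype I30 hearts, an 11.0-fold difference (log2 -3.46). Per2-/- replicate 1 stood apart from the other two, and still lay below every wildtype heart. Lgr6, a receptor for R-spondins that enhance Wnt signalling, had 5.18, 4.46 and 4.57 in Per2-/- hearts and 7.25, 7.41 and 7.38 in wildtype hearts (6.11-fold). Bcl2l13, a mitochondrial outer membrane protein known as a mitophagy receptor, had 7.89, 7.66 and 7.69 in Per2-/- hearts and 9.0, 8.89 and 8.84 in wildtype hearts (log2 -1.16, adjusted p = 2.03e-07). Cmbl, a hydrolase, had 8.26, 7.99 and 8.19 in Per2-/- hearts and 9.11, 9.09 and 9.32 in wildtype hearts (log2 -1.02, adjusted p = 2.43e-05). Nnt, the mitochondrial transhydrogenase that makes NADPH and is known to be partly deleted in the C57BL/6J substrain, had 11.45, 11.53 and 11.57 in Per2-/- hearts and 10.45, 10.48 and 10.46 in wildtype hearts (log2 1.06, standard error 0.08). Edn3, endothelin 3, had 6.93, 6.81 and 6.91 in Per2-/- hearts and 4.76, 5.41 and 4.92 in wildtype hearts (3.61-fold). Snrpe, a core protein of the spliceosome, had 8.34, 8.53 and 8.49 in Per2-/- hearts and 7.45, 7.47 and 7.47 in wildtype hearts (log2 0.99, adjusted p = 7.18e-06), and Wdfy1, an endosomal adaptor, 6.23, 6.66 and 6.50 in Per2-/- hearts and 5.41, 5.01 and 5.24 in wildtype hearts (log2 1.24, adjusted p = 0.000193). Outside the set, Rab4a, a GTPase of early endosomes, had 6.58, 6.29 and 6.43 in Per2-/- hearts and 4.74, 4.39 and 4.84 in wildtype hearts (log2 1.78, adjusted p = 0.000193), and was called in sham and I30R60 hearts too, the sham call ending without the 4 arrays with high Myl7 (adjusted p = 0.16), as did that of Rcan2 (0.0703). Slc38a1, a glutamine transporter, had 5.15, 5.09 and 4.55 in Per2-/- hearts and 6.56, 6.25 and 6.49 in wildtype hearts (log2 -1.50, adjusted p = 0.0269), a call that ended without any of the 6 arrays (adjusted p up to 0.137), and its sham difference was -1.16, or -1.70 and called without Per2-/- sham replicate 3 (adjusted p = 0.00121). All of these but Slc38a1 were called in all 6 fits.

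**Figure D5:**
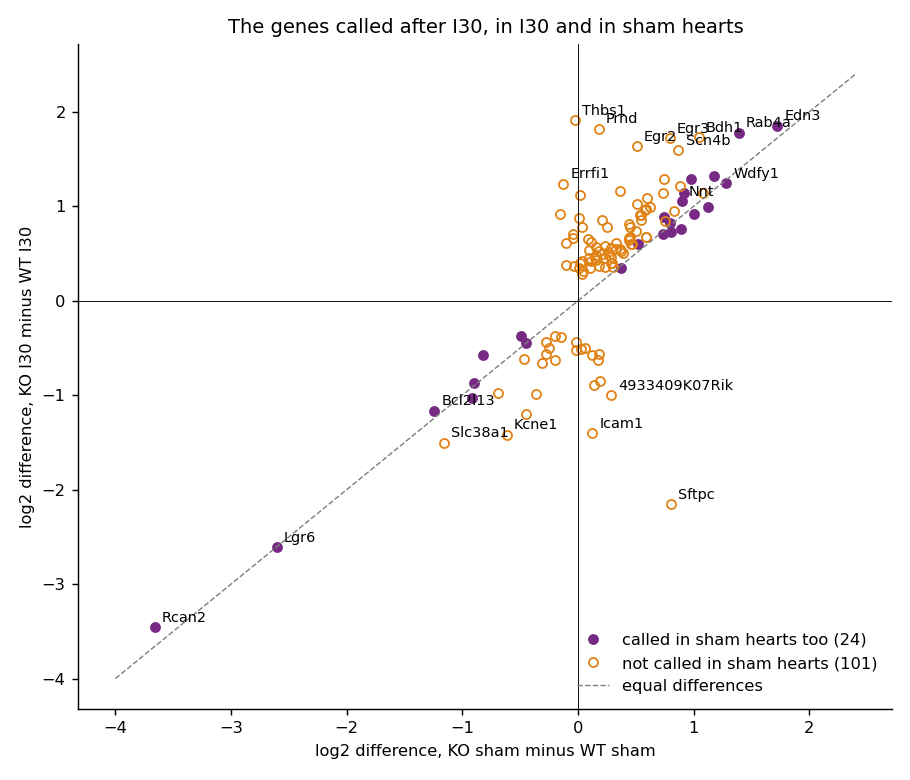
Log2 difference between Per2-/- and wildtype hearts after I30 (vertical axis) against that in sham hearts (horizontal axis) for the 125 genes called after I30; filled purple points were called in sham hearts too (24), open orange points were not (101), and the dashed line marks equal differences. Rcan2, Lgr6, Bcl2l13 and Edn3 lie near the line, while Thbs1, Prnd, Errfi1, Sftpc and Icam1 lie far from it. The sham difference of Thbs1 is -0.02 as plotted and was 0.70 without Per2-/- sham replicate 3, which would place it nearer the line.

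Many of the called genes lay on the chromosome of Per2. Of the 125, 20 were on chromosome 1 (16.0%), 12 higher and 8 lower, against 1061 of the 18820 genes tested (5.64%). The window of 201 genes around Per2, with 100 measured genes on each side, held 5 called genes, namely Wdfy1, Itm2c, Cops8, Tsn and Tmem37. Over the whole of chromosome 1 the count was 20 of 1061, and over all genes the share was 0.664%. The called gene nearest to Per2, Cops8, a subunit of the COP9 signalosome, was 14 genes away. Cops8 had a difference of -0.37 after I30, a call that ended without any of the 6 arrays (adjusted p up to 0.0983), and one of -0.49 in sham hearts, whose call ended without the 4 arrays with high Myl7 (0.106). Farther out on the chromosome were Mfsd4a, Snrpe and Lgr6, at 150, 169 and 192 genes from Per2, and Mettl11b at 334. Mfsd4a, a transporter-like membrane protein, had 6.05, 5.75 and 5.91 in Per2-/- hearts and 5.03, 4.39 and 4.42 in wildtype hearts (log2 1.29, adjusted p = 0.00138). Mettl11b, an N-terminal methyltransferase, had 4.44, 4.18 and 4.61 in Per2-/- hearts and 2.96, 2.91 and 3.38 in wildtype hearts (log2 1.32, adjusted p = 0.00858), and its call ended without Per2-/- I30 replicate 3 or wildtype I30 replicate 1 (adjusted p up to 0.0546). The methods name littermate controls for the measurement of fatty acids and not for the arrays. A difference in background between the mouse lines therefore cannot be told apart from the loss of Per2. Whether DNA from another strain, around Per2 or elsewhere, is part of these differences was not tested.

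Whether the genotype difference after I30 was another one than in sham hearts was tested as an interaction. It passed the test in limma for no gene (smallest adjusted p = 0.0779), with 1336 of 18820 genes at an unadjusted p under 0.05. Of the 125 called genes, 50 were among these. The interaction contains the I30 difference by which the 125 were chosen, so this count was raised by the choice and tests nothing. Against the mean of the genotype differences in sham, IP0 and I30R60 hearts, 1 gene passed, 4933409K07Rik, which carries no given function. It had 6.07, 5.78 and 6.07 in Per2-/- I30 hearts and 7.19, 6.94 and 6.79 in wildtype I30 hearts (log2 -1.0, adjusted p = 0.00138), against 6.09, 6.65 and 6.38 in Per2-/- sham hearts and 6.12, 6.02 and 6.13 in wildtype sham hearts. With the replicate block, and likewise without the 4 arrays with high Myl7, this test called 0 genes. Set against the sham hearts of its own genotype, I30 called 0 genes by limma in Per2-/- hearts (1343 had an unadjusted p under 0.05), against 449 in wildtype hearts, comparisons that share the I30 arrays with the one described here. Without the 4 arrays with high Myl7 these counts were 0 in Per2-/- hearts and 3 in wildtype hearts. For the genes named above, the values after I30 minus sham were 0.78 in Per2-/- and -1.15 in wildtype hearts for Thbs1, 0.12 and -1.52 in the same order for Prnd, -0.04 and -1.18 for Egr2, 0.11 and -0.61 for Insig1, and -0.46 and 1.07 for Icam1. The value of Thbs1 in Per2-/- hearts rested on sham replicate 3 and was 0.06 without it, and those of Prnd and Egr2 were then 0.48 and -0.34. No interaction passed the test for these 5 genes, with or without that array.

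Classes of short or rarely expressed transcripts held few calls. None of 306 microRNA genes (median -0.06) and none of 56 small nucleolar RNA genes (median 0.05) was called. Of 979 olfactory receptor genes, 1 was called, Olfr558, with 7.31, 7.26 and 7.12 in Per2-/- hearts and 6.73, 6.44 and 6.71 in wildtype hearts (log2 0.60, adjusted p = 0.0233), a call that ended without Per2-/- I30 replicate 1 or 2 or wildtype I30 replicate 1 or 2 (adjusted p up to 0.111). No gene was called among 313 numbered zinc finger genes or 68 ribosomal protein genes, whose medians were -0.03 and -0.08, while under the common interquartile range the ribosomal gene Rpl36a was called lower (-0.41). Of the 33 lower genes, 10 had a mean level under 4, against 2 of the 92 higher genes, and the deposited values carry no detection calls. A mean under 4 was common over all genes. Ranked by mean level in 5 groups of 3764 genes, groups 1 and 2 lay at or below 3.99.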

How the data were processed

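Total RNA of left ventricles was hybridized to Affymetrix Mouse Gene ST arrays. Each deposited value is a log2 intensity, which the authors computed from CEL files with RMA in Partek Genomics Suite (Partek 6.6 in the submitters' processing notes). They carry no detection calls, and the number of arrays limits the precision.

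Of 35555 probe sets, 21218 were paired with 1 gene symbol and used, 1881 with several and 12456 unlisted, which were left out. For 1386 genes with several probe sets the brightest was taken, leaving 18820 genes. The model was fitted in limma 3.58.1 (R 4.3.3) with 8 group means over 24 arrays, 16 residual degrees of freedom, default moderation, Benjamini-Hochberg adjustment over all genes, and a call at an adjusted p under 0.05. The tests were tried on simulated data. Tables and figures used Python 3.11.15, numpy 2.4.6, pandas 2.3.3 and matplotlib 3.10.9. Alternatives covered the arrays in the model, limma's options, array weights, scaling, a filter on dim genes, the choice of probe set, a replicate block, the methods' t-test, the thresholds, and arrays left out.

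The members and the 43 gene lists, from general knowledge and the study, were chosen with earlier results of these data known. Named by rule were Per2, the 10 largest called rises and falls without overlap, the 5 smallest p values in each direction, called members of pathway lists, up to 4 members of a described list by size, the clock genes, the study's 5 genes, called interactions, and the 5 largest differences of opposite sign in sham and I30. Other genes with values (Nab2, Errfi1, Insig1, Lima1, Ccn3, Fgf2, Unc5b, Grk5, Prkcq, Myot, Camk2b, Penk, Egfr, Ugdh, Nr4a1, Nr4a3, Olfr558, Selp, Tlr2, Ryr2, Casq2, Pln, Atp2a2, Kcnq1, Fos, Jun, Ier5, Cops8 and the chromosome 1 genes) were picked after their values were seen. Promoters are RefSeq's for GRCm38.p6.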

Additional observations from a re-analysis of the deposited data

Results flagged for a closer look

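The genotype difference in 4933409K07Rik after I30 departed from the mean of those in sham, IP0 and I30R60 hearts by -1.14 (standard error 0.17, limma adjusted p = 0.0233), the 1 gene for which that difference between treatments was called. Per2-/- minus wildtype was -1.0 after I30, 0.28 in sham hearts, -0.04 after IP0 and 0.19 after I30R60. Without Per2-/- I30 replicate 1, 2 or 3 or wildtype I30 replicate 1 the test called no gene, and without wildtype I30 replicate 2 or 3 it called 3 and 15. The replicate block, an ordinary linear model and the fit without the 4 arrays with high Myl7 each called 0 genes in this test, so the call of 4933409K07Rik ended there too.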

How the results depend on the processing

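All 125 genes kept the sign of their difference in every alternative run that tested them (112 of them where dim genes were left out). With only the 6 I30 arrays in the model, 21 genes were called (16 higher, 5 lower). With limma's trend and robust options there were 222 (148 and 74), with 1 gene called in the interaction against sham and 5 in that against the mean of the other treatments. With genes above the median level there were 194 (141 and 53), with 1 and 3 interactions. Scaling to a common interquartile range gave 94 lower genes and 1 interaction against sham, as did quantile normalization (1). Array weights gave 3 and 4 interactions. An ordinary linear model and the replicate block gave 0 interactions against the other treatments. The methods' t-test called 1766 genes unadjusted (936 and 830) and 0 after Benjamini-Hochberg adjustment (0 and 0). An adjusted p under 0.01 left 34 (26 and 8), one under 0.1 gave 236 (147 and 89), and asking for 1.5-fold left 78 (59 and 19). Without the 4 arrays with high Myl7, 1 and 0 interactions were called. With each I30 array left out in turn, the calls ranged between 43 and 160 (32 to 84 higher, 11 to 76 lower), the interactions against sham between 0 and 6 (sham arrays left out included) and those against the other treatments between 0 and 15. Atf3 had a difference of -0.20 with all arrays, of 0.0785 (adjusted p = 0.97) without wildtype I30 replicate 1 and of -0.496 at the lowest. In alternatives chosen after seeing the data, the sham difference of Thbs1 (-0.02 with all arrays) was 1.1 without the 4 arrays with high Myl7 and 0.70 without Per2-/- sham replicate 3, that of Prnd (0.18) -0.29 and -0.18, that of Errfi1 (-0.13) 0.32 and 0.27, and that of Insig1 (-0.11) 0.0249 without the 4 arrays. The causes were not tested.

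The labels do not say what a replicate number marks, and the arrays were not taken as paired. The correlation of deviations from the group means between same-numbered Per2-/- and wildtype I30 arrays was 0.02, -0.07 and -0.02. Over all groups it averaged 0.02 for same-numbered arrays and -0.01 for the rest, and exceeded 0.1 for all 3 numbers in 1 of 28 pairs of groups, Per2-/- I30 with wildtype sham. Yet 19 of 24 arrays correlated best with one of their own number, a hint from the data, not the design, that the numbers may share something. With the replicate block, 128 genes were called, 113 of them among the 125.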
